A study of Homo sapiens with 6 samples.

Results

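The enzymes of the tricarboxylic acid cycle described here are citrate synthase (CS), isocitrate dehydrogenases (IDH2 and the IDH3A, IDH3B and IDH3G subunits), the 2-oxoglutarate dehydrogenase E1 subunit (OGDH), the alpha subunit of succinate-CoA ligase (SUCLG1), fumarate hydratase (FH) and mitochondrial malate dehydrogenase (MDH2). Succinate dehydrogenase was left out of the set. Members were the probe sets whose platform annotation gives exactly 1 symbol equal to one of these 9 genes. The rule found 28 probe sets of 8 genes, out of 49293 probe sets and 18244 genes tested, and FH was not analysed here. The rule uses symbols and no measured values, but the genes were chosen with earlier results of these data known.

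Expression was measured on 6 Affymetrix arrays of A549, an established human lung adenocarcinoma line grown in RPMI-1640 with serum. The KD group (3 arrays) had received a lentivirus with a short hairpin RNA against MRPL35, a component of the mitochondrial ribosome's large subunit, and the NC group (3 arrays) a lentivirus with a control hairpin. All 6 samples therefore carry a lentiviral hairpin, and the labels give neither the number of hairpins, the time after transduction, nor whether cells were cloned or cultures were separate. The p-values thus cover no more than the spread among these 6 samples, and that spread may be technical. The source names of NC replicates 2 and 3 carry other cell line numbers, whereas the characteristics give A549. Loss of MRPL35 was compared with the control to follow division and death of lung cancer cells, per the series title.

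The cycle runs in the mitochondrial matrix. Citrate synthase joins acetyl-CoA to oxaloacetate, isocitrate dehydrogenase and 2-oxoglutarate dehydrogenase each release carbon dioxide and make NADH, succinate-CoA ligase makes a nucleotide triphosphate, and fumarate hydratase and malate dehydrogenase return the carbon to oxaloacetate. Its NADH feeds the respiratory chain, some of whose subunits are made by the mitochondrial ribosome, while all the enzymes of the cycle are encoded in the nucleus and made in the cytosol.

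MRPL35 read 8.16, 8.05 and 8.36 in NC replicates 1 to 3 and 6.49, 6.44 and 6.56 in KD replicates 1 to 3 (log2 probe-set values), so the target was lower in every array labelled KD. The 3' minus 5' difference of control probe sets, which follows RNA integrity, ran from 0.59 to 0.68 in KD and from 0.49 to 0.65 in NC for ACTB, and from 0.046 to 0.11 in KD and from -0.035 to 0.064 in NC for GAPDH. The epithelial markers were measured for 5 of 5 genes, from EPCAM at a mean log2 level of 5.98 to KRT18 at 13.65. Their summed linear signal was 29737 to 30522 in KD and 20952 to 21965 in NC, and 4 of the 5 were called higher in KD. Markers of fibroblasts (5 genes), leukocytes (4) and endothelium (4) were dim, with mean log2 levels between 2.52 (PTPRC) and 5.71 (CD14), and 1 of these 13, CD14, was called higher. The part of these differences in the results below was not tested.

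The cycle enzymes did not move as a block. In bulk RNA such as this, a change in the share of some cells and a change in RNA per cell cannot be told apart. By the brightest probe set of each gene, 3 of the 8 measured members rose (IDH3G, IDH2 and OGDH), 1 fell (CS) and 4 did not pass the test (IDH3A, IDH3B, SUCLG1 and MDH2; limma, adjusted p under 0.05 over all genes). The fall of CS holds for its brightest probe set only. Its next in brightness was called higher, so no direction is given for CS as a whole. Across all genes tested 33.5% were called, 17.6% higher and 15.9% lower in KD. All 8 members are bright, the dimmest lying at the 76.2 percentile of mean level, and among the 4349 genes at least that bright 56.9% were called, 30.1% higher and 26.8% lower. The members' 4 calls of 8 are thus near the share among bright genes. Their median log2 change was 0.046, against -0.018 for all genes. The groups did not overlap for 4 of the 8, and across all genes this held for 44.7%. Of the 28 member probe sets 7 were called higher, 1 lower and 20 did not pass. Of all probe sets 30.6% were called, 16.5% higher and 14.1% lower. The groups did not overlap in 10 of the 28 member probe sets, against 42.5% of all probe sets.

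**Figure D1:**
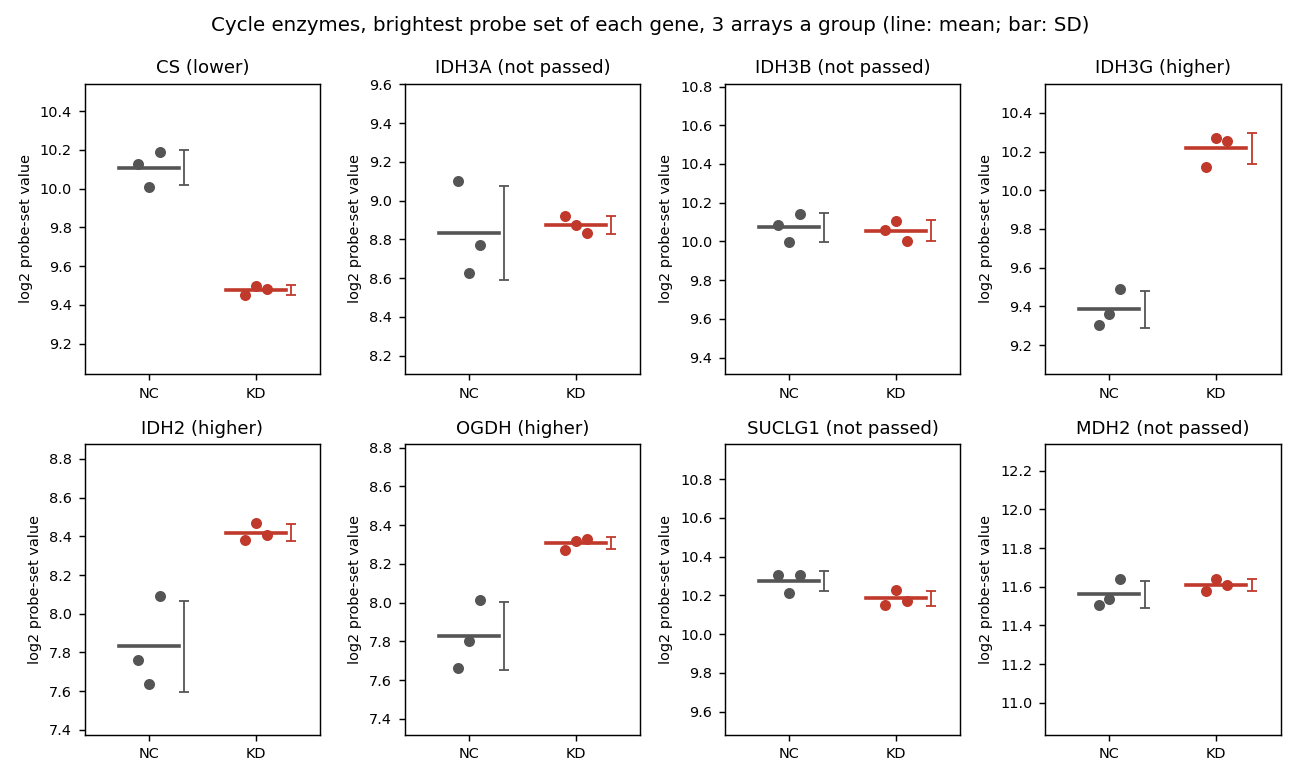
Log2 probe-set value (vertical axis, each panel spanning the same range) of the brightest probe set of each of the 8 measured cycle enzymes in the 3 NC and 3 KD arrays, with group means as lines and SD as bars. KD points lie above all NC points for IDH3G, IDH2 and OGDH, below them for CS, and overlap them in the other 4 panels.

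The NAD-dependent isocitrate dehydrogenase is built from 3 kinds of subunit: IDH3A is the catalytic subunit and pairs with IDH3B or with IDH3G, and the pair with IDH3G responds to allosteric effectors. Only IDH3G passed the test among them. IDH3G read 9.31, 9.36 and 9.49 in NC replicates 1 to 3 and 10.12, 10.27 and 10.25 in KD replicates 1 to 3. Every KD array lay above every NC array, and the lowest KD value exceeded the highest NC value by more than the range within either group. The gene rose by 0.83 ± 0.086 (log2 change ± standard error, n = 3 per group), a 1.78-fold higher signal (limma adjusted p = 9.64e-05). It was represented by a single probe set, so no other probe set of the gene bears on the value.

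IDH3A read 9.10, 8.63 and 8.77 in NC and 8.92, 8.87 and 8.83 in KD. The NC arrays spanned the KD arrays on both sides, and the change was 0.043 with a 95% interval of -0.23 to 0.32 (limma adjusted p = 0.839). All 5 of its probe sets had mean levels between 8.01 and 8.85, none passed, and their changes ran from -0.032 to 0.18. In the probe set at the upper end the lowest KD array (8.83) lay above the highest NC array (8.80), without passing (adjusted p = 0.168 by limma over all probe sets).

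IDH3B read 10.08, 10.00 and 10.14 in NC and 10.06, 10.11 and 10.00 in KD. The groups overlapped, and the change of -0.018 had a 95% interval of -0.20 to 0.16 (limma adjusted p = 0.902), which leaves out a rise as large as that of IDH3G. None of the 6 probe sets of IDH3B passed, and 5 of them had log2 changes between -0.018 and 0.073. The dimmest, at a mean level of 7.86, had a log2 change of -0.23 ± 0.15.

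The change of IDH3G relative to its partners was looked at within each array. IDH3G minus IDH3A was 0.21, 0.73 and 0.72 in NC and 1.20, 1.40 and 1.42 in KD, a difference of 0.79 between the groups. IDH3G minus IDH3B was -0.78, -0.64 and -0.65 in NC and 0.060, 0.17 and 0.25 in KD, a difference of 0.85. In both pairs the groups did not overlap, whereas for IDH3B minus IDH3A they did, with a difference of -0.061 (exact permutation p = 0.80). For the pairs with IDH3G the two-sided exact permutation p was 0.10, the smallest that 3 against 3 arrays allow, and 0.114 after Benjamini-Hochberg adjustment over 8 pairs. With so few arrays the permutation test could not call any pair, so unequal change was not established by it. Both pairs hold IDH3G, which was called by itself while IDH3A and IDH3B were not, so they largely restate the single-gene calls. Such a difference concerns change between the groups, not the levels of the subunits against each other, since brightness differs between probe sets.

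The promoters of the 3 subunit genes are shown because these genes code for parts of 1 enzyme and only IDH3G passed the limma test among them. Each window runs from 250 bases before the start site to 50 after it (RefSeq, GRCh38.p14, 5′ to 3′ on the strand of the gene). Capitals mark matches on either strand to motifs of NRF1 (GCGC, any 2 bases, GCGC), of GABP and other ETS factors (CCGGAAG) and of YY1 (AANATGGCG), which are known at promoters of genes for mitochondrial proteins.
IDH3G, chrX:153794326-153794625, minus strand: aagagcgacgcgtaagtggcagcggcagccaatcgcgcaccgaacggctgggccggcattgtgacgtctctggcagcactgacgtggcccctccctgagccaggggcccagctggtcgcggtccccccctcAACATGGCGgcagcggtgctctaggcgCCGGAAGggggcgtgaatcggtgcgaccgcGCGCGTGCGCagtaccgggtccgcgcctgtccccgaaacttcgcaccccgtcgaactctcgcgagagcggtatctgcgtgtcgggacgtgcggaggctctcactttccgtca
IDH3A, chr15:78149112-78149411, plus strand: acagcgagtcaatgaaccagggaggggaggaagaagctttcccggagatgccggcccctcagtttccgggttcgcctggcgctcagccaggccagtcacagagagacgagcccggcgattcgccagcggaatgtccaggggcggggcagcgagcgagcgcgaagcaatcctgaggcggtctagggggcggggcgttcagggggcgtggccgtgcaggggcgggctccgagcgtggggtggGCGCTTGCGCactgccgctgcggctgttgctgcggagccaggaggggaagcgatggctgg
IDH3B, chr20:2664167-2664466, minus strand: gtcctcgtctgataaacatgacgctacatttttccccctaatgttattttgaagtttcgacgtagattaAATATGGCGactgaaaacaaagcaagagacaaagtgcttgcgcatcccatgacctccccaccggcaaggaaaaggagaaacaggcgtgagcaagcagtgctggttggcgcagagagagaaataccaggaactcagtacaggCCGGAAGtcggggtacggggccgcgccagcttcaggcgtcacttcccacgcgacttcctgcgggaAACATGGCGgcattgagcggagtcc

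The IDH3G window held a match to each of the 3 motifs, with first bases at positions -119 (YY1), -92 (ETS) and -62 (NRF1) from the start site, and none overlapped another. Of these 3 motifs IDH3A held that of NRF1, at -10, and IDH3B the ETS motif at -40 and YY1 matches at -181 and 26. Of 35116 promoters of this length, 8.32% held the NRF1 motif, 10.3% the ETS motif and 3.19% the YY1 motif. The promoter table held 8 of the 9 genes, without OGDH, and among these 2 had the NRF1 motif (IDH3A and IDH3G), 3 the ETS motif (IDH3B, IDH3G and MDH2) and 2 the YY1 motif (IDH3B and IDH3G). The SP1 motif GGGCGG was found in CS, IDH3A and FH, against 45% of all promoters, and the ERR half-site AAGGTCA in none of the 8, against 3.92%. The IDH2 window lies inside the annotated gene, not at its outermost start, so it says nothing of the promoter there. These matches describe letters in the windows and are not measured binding sites.

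The start of IDH3G lies 74 bases from that of SSR4, a subunit of the signal sequence receptor of the endoplasmic reticulum, on the opposite strand and pointing away from it. The YY1 (-119) and ETS (-92) matches of the IDH3G window thus lie beyond the SSR4 start, and the NRF1 match (-62) lies between the starts of both genes. SSR4 read 11.32, 11.32 and 11.43 in NC and 11.81, 11.92 and 11.82 in KD. It rose by 0.49 ± 0.079 (limma adjusted p = 0.00117), with all KD arrays above all NC arrays. MDH2 likewise has a divergent neighbour, STYXL1, 106 bases away. STYXL1 read 8.43, 8.57 and 8.60 in NC and 8.27, 8.30 and 8.27 in KD. It fell by 0.25 on the log2 scale (limma adjusted p = 0.0366), while MDH2 did not pass, and this call was lost without any 1 KD array, NC replicate 2 or NC replicate 3, and with the replicate number as a block (limma adjusted p = 0.0504, in a range from 0.0141 to 0.120 over 15 alternatives). These 2 are the measured genes among those with a divergent start within 1000 bases of a member, and they were looked up after the members' values were known.

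IDH2 is the NADP-dependent isocitrate dehydrogenase of the matrix, a source of mitochondrial NADPH. It read 7.76, 7.64 and 8.09 in NC and 8.38, 8.47 and 8.41 in KD. NC replicate 3 was the highest control and still lay below every KD array. The gene rose by 0.59 ± 0.12 (limma adjusted p = 0.00414). Its next probe sets in brightness rose too, by 0.47 and 0.57 (limma over all probe sets, adjusted p = 0.00295 and 0.00186), and KD lay above NC in each. The dimmest, with a mean level of 5.52, had a log2 change of -0.048 ± 0.088 with overlapping groups. IDH2 minus IDH3A differed between the groups by 0.54 (exact permutation p = 0.10, adjusted 0.114).

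OGDH is the thiamine-dependent E1 subunit of the 2-oxoglutarate dehydrogenase complex. It read 7.66, 7.80 and 8.01 in NC and 8.27, 8.32 and 8.33 in KD, so that the groups did not overlap although NC varied more than KD. It rose by 0.48 ± 0.099, or 1.39-fold (limma adjusted p = 0.00497). A second probe set, at 6.21, 6.39 and 6.26 in NC and 6.60, 6.87 and 6.84 in KD, rose by 0.48 (limma over all probe sets, adjusted p = 0.00540). The remaining pair, both near a mean level of 5.3, had log2 changes of -0.13 and 0.17 and did not pass. With the mean of all 4 probe sets the rise of OGDH was 0.25 (limma adjusted p = 0.0251, the highest of its 15 alternatives, which reached down to 0.000576).

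The E2 partner of OGDH went the other way. DLST, the lipoate-bearing core of the complex, read 8.84, 8.85 and 9.45 in NC and 8.41, 8.62 and 8.24 in KD. Its log2 change was -0.62 ± 0.17, a fall (limma adjusted p = 0.0207), and 6 of its 7 probe sets were called lower. NC replicate 3 was highest in this gene. The call on the brightest probe set was lost without KD replicate 1 (limma adjusted p = 0.0591) or KD replicate 3 (0.0816), in a range from 0.00130 to 0.0816 over 15 alternatives. OGDH minus DLST was -1.17, -1.05 and -1.44 in NC and -0.14, -0.30 and 0.089 in KD, a difference of 1.10 with groups that did not overlap (exact permutation p = 0.10, adjusted 0.114). DLD, the E3 subunit that the complex shares with pyruvate dehydrogenase, had a log2 change of 0.21 (limma adjusted p = 0.0613). Of its 7 probe sets 3 were called higher, and the gene passed in 5 of 15 alternatives (limma adjusted p from 0.00332 to 0.170).

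Citrate synthase gave opposite readings on its bright probe sets. The brightest read 10.13, 10.01 and 10.19 in NC and 9.45, 9.50 and 9.48 in KD. All KD arrays lay below all NC arrays, and the gene was 1.55-fold lower by this probe set (log2 change -0.63 ± 0.080, limma adjusted p = 0.000303). The second in brightness read 7.66, 7.66 and 7.60 in NC and 7.94, 7.99 and 7.96 in KD. This one rose by 0.32 ± 0.078 (limma over all probe sets, adjusted p = 0.0114), again without overlap. Its remaining probe set was dim, at a mean level of 2.98, and had a log2 change of 0.031 with overlapping groups.

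The s suffix of both bright probe sets marks probes that can match more than 1 transcript. With the mean of the 3 probe sets CS had a log2 change of -0.092 (limma adjusted p = 0.396), and with x and s suffix probe sets left out it was read by the dim probe set alone, at 0.031. Over its 15 alternatives the limma adjusted p of CS ran from 1.12e-06 to 0.894. No direction for citrate synthase as a whole can therefore be given. Of 11825 genes with 2 or more probe sets, 1.64% had at least 1 probe set called higher and at least 1 called lower, and CS was the only such gene among the members.

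**Figure D2:**
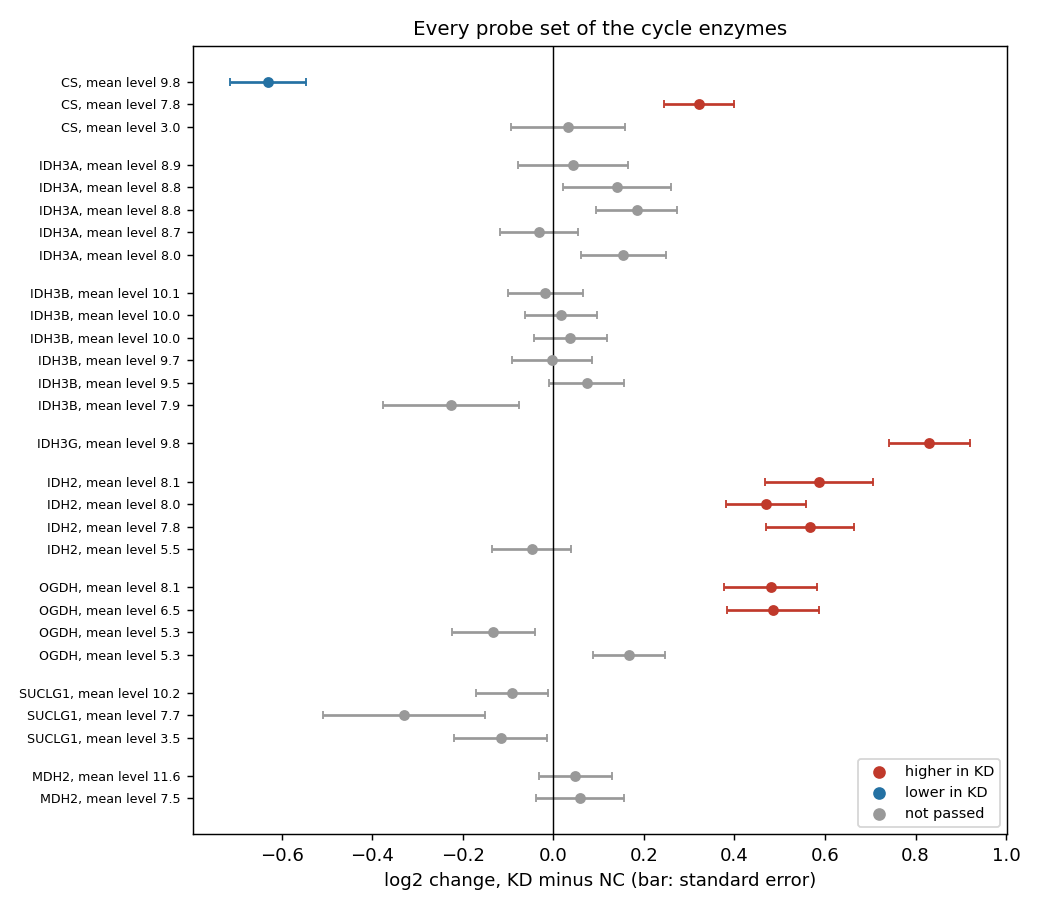
Log2 change, KD minus NC, with its standard error (horizontal axis) for each of the 28 probe sets of the 8 measured cycle enzymes, labelled by gene and mean log2 level. The bright probe sets of CS lie on opposite sides of 0, and the 3 brighter ones of IDH2 and the 2 brighter ones of OGDH lie to the right. The probe sets of IDH3A and IDH3B lie between -0.23 and 0.18, and none of them passed.

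SUCLG1 is the alpha subunit of succinate-CoA ligase, common to the forms that make ATP (with SUCLA2) and GTP (with SUCLG2). It read 10.31, 10.22 and 10.31 in NC and 10.15, 10.23 and 10.17 in KD. The groups overlapped, and its change of -0.091 had a 95% interval of -0.26 to 0.080 (limma adjusted p = 0.433). Its second probe set ran from 7.45 to 8.21 in NC, with NC replicate 2 lowest, and from 7.30 to 7.62 in KD. That probe set had a log2 change of -0.33 without passing, and was called lower without NC replicate 2 (log2 change -0.52, limma adjusted p = 0.0194, the lowest of its 14 alternatives, which reached up to 0.570). The dim remaining one had a log2 change of -0.12.

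Both beta subunits rose while SUCLG1 did not pass. SUCLG2 read 8.20, 8.30 and 8.22 in NC and 8.79, 8.64 and 8.85 in KD, a rise of 0.52 ± 0.085 (limma adjusted p = 0.00130). That call rests on probe sets with x or s suffixes, since the dim remaining one had a log2 change of 0.13. SUCLA2 rose by 0.30 ± 0.089 (limma adjusted p = 0.0309), with 1 of its 5 probe sets called higher and the others between 0.11 and 0.40. Its call was lost when KD replicate 1 or 3, or NC replicate 3, was left out, and when its probe sets were averaged (limma adjusted p between 0.0792 and 0.127, in a range from 0.00537 to 0.127 over 15 alternatives). SUCLG1 minus SUCLG2 was 2.11, 1.92 and 2.09 in NC and 1.37, 1.59 and 1.32 in KD, a difference of -0.61, and for SUCLG1 minus SUCLA2 the difference was -0.39. Neither pair overlapped between groups (exact permutation p = 0.10 each, adjusted 0.114). Without x and s suffix probe sets SUCLG1 minus SUCLG2 differed by -0.46 and the groups overlapped (exact permutation p = 0.30).

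MDH2, which reoxidises malate to oxaloacetate, read 11.51, 11.54 and 11.64 in NC and 11.58, 11.64 and 11.61 in KD. The groups overlapped, with a change of 0.049 and a 95% interval of -0.13 to 0.22 (limma adjusted p = 0.704). Its dimmer probe set had a log2 change of 0.058. The cytosolic enzyme MDH1 rose by 0.33 (limma adjusted p = 0.0249), a call lost without any 1 of the KD arrays. MDH2 minus MDH1 differed between KD and NC by -0.28 without overlap (exact permutation p = 0.10, adjusted 0.114).

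**Figure D3:**
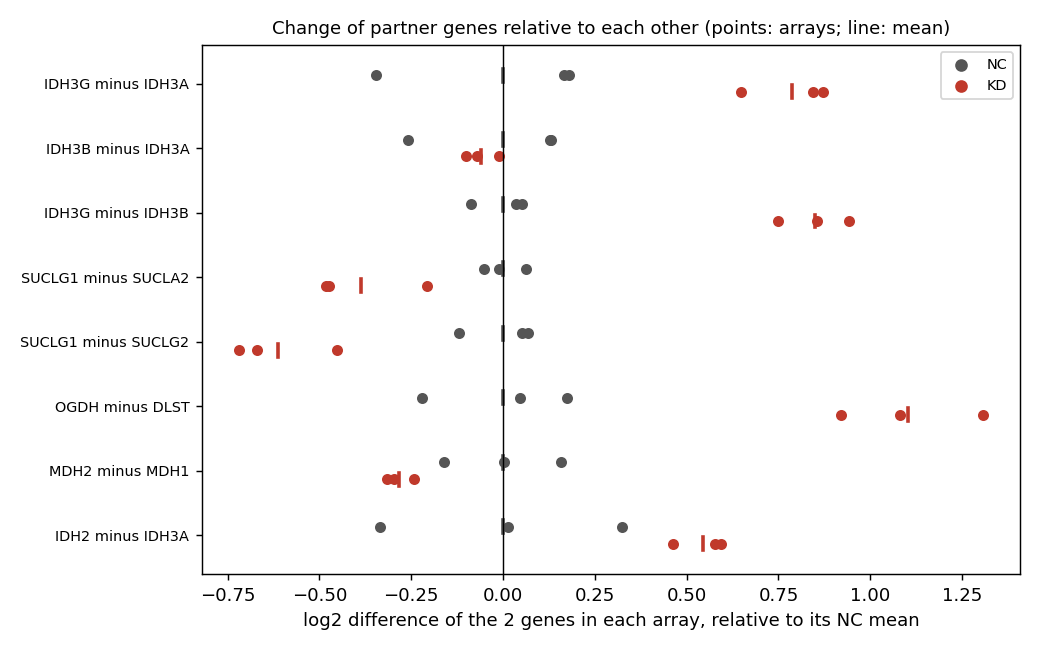
Log2 difference between 2 genes in each array, relative to its NC mean (horizontal axis), for 8 pairs of subunits or isoenzymes; points are arrays and short lines group means. KD and NC overlap only for IDH3B minus IDH3A, and the widest gap is that of OGDH minus DLST. Every other pair holds a gene that was called by itself. The share of all gene pairs without overlap was not computed, and for single genes it was 44.7%.

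By root mean square difference over the 6 arrays, after subtracting the NC mean of each gene, the profiles most like that of IDH3G were TRPT1 (0.033), VPS28 (0.037), MGMT (0.040), GPX1 (0.041) and DPP7 (0.042). These 5 genes had log2 changes between 0.79 (DPP7) and 0.85 (TRPT1). That closeness to IDH3G follows from how they were picked, out of all genes, of which 17.6% were called higher.

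Lists were also made of the genes that complete, feed or drain the cycle. Of 45 genes listed, 40 were measured, and 19 were called higher, 9 lower and 12 did not pass, with a median log2 change of 0.21 against -0.018 for all genes. Across all genes 33.5% were called, 17.6% higher and 15.9% lower, and these shares are the background of each list below. Of the 23 measured pathway genes at least as bright as the dimmest member 15 were called, 13 higher and 2 lower, where 56.9% of all genes that bright were called. The remaining listed genes were not analysed here. Members of the lists were chosen with earlier results of these data known, so the counts describe these genes and are no independent support for a direction.

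**Figure D4:**
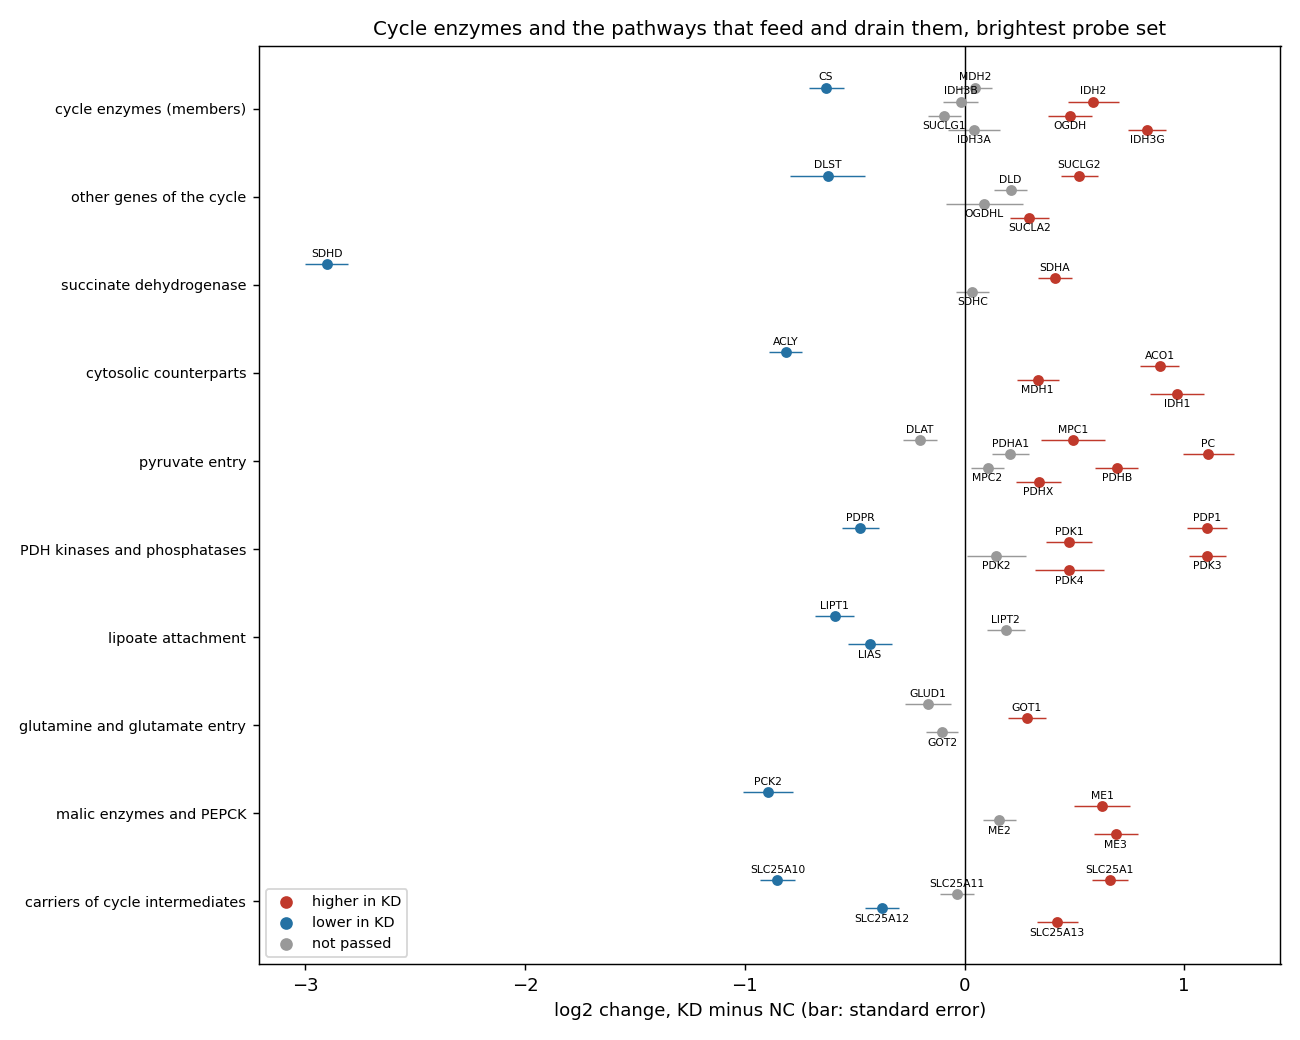
Log2 change, KD minus NC, with its standard error (horizontal axis) of the brightest probe set of each gene, for the 8 measured cycle enzymes (top) and 9 lists of genes around them. Most lists hold genes on both sides of 0, from SDHD at -2.90 to PC at 1.11.

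Among genes of the cycle itself outside the set, 2 of 5 rose (SUCLG2 and SUCLA2), 1 fell (DLST) and 2 did not pass. In succinate dehydrogenase, which links the cycle to the respiratory chain, SDHD fell in all 5 of its probe sets, with log2 changes between -1.29 and -2.90. Each of these has an x or s suffix, and a pair of them holds identical values in every array, so they are not all separate readings. The catalytic subunit SDHA rose by 0.41 ± 0.077 (limma adjusted p = 0.00297) on a probe set with an x suffix. Averaged over its probe sets the rise was 0.26, and without x and s suffix probe sets SDHA was read by a dim one at -0.099.

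Of the 4 cytosolic counterparts 3 rose and 1 fell. IDH1, the cytosolic NADP-dependent isocitrate dehydrogenase, read 9.70, 9.27 and 9.68 in NC and 10.46, 10.60 and 10.48 in KD, a rise of 0.97 ± 0.12 (limma adjusted p = 0.000306) with 3 of 3 probe sets called higher. ACO1, the cytosolic aconitase and iron regulatory protein, rose by 0.89 ± 0.090 (limma adjusted p = 8.48e-05) in 2 of 2 probe sets. ATP citrate lyase (ACLY), which splits exported citrate for lipid synthesis, fell by 0.81 on the log2 scale (limma adjusted p = 5.06e-05). It read from 12.11 to 12.19 in NC and from 11.29 to 11.38 in KD. Both of its probe sets were called lower, and both have an s suffix.

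At the entry of pyruvate 4 of 7 genes rose, 3 did not pass and 0 fell, and the median log2 change was 0.34. Pyruvate carboxylase (PC), which makes oxaloacetate from pyruvate, read 6.80, 6.55 and 6.99 in NC and 7.94, 7.94 and 7.79 in KD, a 2.16-fold rise (limma adjusted p = 0.000108). Its second probe set had a log2 change of 0.16 without passing, and the mean of both gave 0.63. PDHB, the beta chain of pyruvate dehydrogenase E1, rose by 0.69 ± 0.099 (limma adjusted p = 0.000606), and MPC1, of the pyruvate carrier, by 0.49 ± 0.14 (limma adjusted p = 0.0274, lost without KD replicate 1 or KD replicate 3). MPC1 was read by 1 probe set, which lay at the 37.7 percentile of level. The log2 change was 0.21 for the alpha chain PDHA1 and -0.20 for the E2 core DLAT, and neither passed. Of the PDHA1 probe sets 3 of 5 were called higher, and the gene passed in 6 of 15 alternatives (limma adjusted p from 0.0145 to 0.247). None of the 6 DLAT probe sets was called over all probe sets, and the gene passed in 4 of 15 alternatives (limma adjusted p from 0.0184 to 0.491).

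Regulators of pyruvate dehydrogenase were higher for 4 of 6 genes and lower for 1. The inhibitory kinase PDK3 read 5.65, 5.60 and 5.78 in NC and 6.84, 6.70 and 6.80 in KD, a rise of 1.11 ± 0.085 (limma adjusted p = 1.89e-05). The activating phosphatase PDP1 rose by 1.10 ± 0.092 (limma adjusted p = 2.85e-05) in 3 of 3 probe sets, so that genes of opposite action on the complex rose together. The kinase PDK4 rose by 0.48 (limma adjusted p = 0.0452). That call was lost without any 1 array other than NC replicate 1, with median centring and with array weights, and the change was 0.31 without NC replicate 2.

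The enzymes that supply lipoate, the cofactor of DLST and DLAT, were lower for 2 of 3 genes. LIPT1, a lipoyl transferase, fell by 0.59 on the log2 scale (limma adjusted p = 0.000862), and lipoyl synthase LIAS by 0.43 (limma adjusted p = 0.00933), with 5 of 5 LIAS probe sets called lower. LIPT1 was read by 1 probe set, which lay at the 35.6 percentile of level.

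Of the glutamate entry genes 1 of 3 rose, GOT1, the cytosolic aspartate aminotransferase (log2 change 0.28, limma adjusted p = 0.0325), and that call was lost when KD replicate 2 or 3, or NC replicate 1 or 2, was left out, and with median centring. Of the malic enzymes and mitochondrial PEPCK, 2 of 4 rose and 1 fell. The mitochondrial malic enzyme ME3 rose by 0.69 ± 0.099 (limma adjusted p = 0.000659), or 0.44 with its probe sets averaged, and the cytosolic ME1 by 0.63 ± 0.13 (limma adjusted p = 0.00426). PCK2, which draws oxaloacetate off to phosphoenolpyruvate, fell by 0.89 on the log2 scale (limma adjusted p = 0.000335) in 2 of 2 probe sets.

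The carriers that move cycle intermediates across the inner membrane split evenly, with 2 of 5 higher and 2 lower. The citrate carrier SLC25A1 read 9.18, 9.33 and 9.28 in NC and 9.88, 10.01 and 9.89 in KD, a rise of 0.66 ± 0.081 (limma adjusted p = 0.000262). Without x and s suffix probe sets it had a log2 change of 0.25 and did not pass (limma adjusted p = 0.0926, the highest of its 15 alternatives, the lowest being 1.09e-06). The dicarboxylate carrier SLC25A10 read 8.03, 8.10 and 8.22 in NC and 7.30, 7.26 and 7.23 in KD, a 1.80-fold fall (limma adjusted p = 6.22e-05). Of the aspartate-glutamate carriers, SLC25A13 rose by 0.42 ± 0.093 (limma adjusted p = 0.00694), with 1 of 3 probe sets called higher, and did not pass with their mean (0.28). SLC25A12 went the other way, with a log2 change of -0.38 ± 0.078 (limma adjusted p = 0.00488) and all KD arrays below all NC arrays. Of its 3 probe sets 1 was called lower.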

How the data were processed

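The authors' deposited values cover 49395 probe sets on 6 arrays and were taken as log2 values from their range (2.05 to 14.32, array medians 5.49 to 5.55). The log base, the probe summary and the normalization between arrays are not given in the sources used here. Fold changes may thus be compressed, and each change is relative to most other genes. Samples were grouped by title. The platform annotation gave 45278 probe sets 1 symbol, 1333 several, and 102 were control probe sets.

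Each gene was represented by its brightest probe set with 1 symbol (18244 genes), and every non-control probe set was also tested. Both fits used limma 3.58.1 under R 4.3.3 (eBayes after lmFit, two-sided, group only, 4 residual and 4.67 prior degrees of freedom for genes) with Benjamini-Hochberg adjustment and a threshold of 0.05. The steps were tested on simulated data. Intervals are 95% intervals of that fit. Differences between partner genes used an exact permutation test over the arrays. Precision is limited by the number of arrays.

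The members and gene lists were chosen with earlier results of these data known. Named pathway genes were, per list, up to 3 with the largest change among those called without overlap between groups. DLD, DLAT, PDHA1, MDH1, SLC25A12, SSR4 and STYXL1 were named outside this rule, as was CD14. Alternatives were quantile normalization, median centring, trend and robust fitting, array weights, a replicate block, averaging the probe sets of each gene, no x or s suffix probe sets, no features below the 40th percentile of level, leaving out each array and a threshold of 0.01. The labels do not say whether same-numbered arrays were handled together. The correlations of deviations were 0.25, 0.26 and -0.096 for same-numbered arrays, and ran from -0.37 to 0.29 for arrays of different number. Promoters came from RefSeq (GRCh38.p14). Figures were drawn with matplotlib 3.10.9.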

Additional observations from a re-analysis of the deposited data

How the results depend on the processing

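The number of members called higher was 3 in every alternative run, and the rises of IDH3G (0.79 to 0.88 over 15 alternatives), IDH2 (0.39 to 0.72) and OGDH (0.25 to 0.57) kept direction and call in each. The member called lower, CS, was called in none (0) with the probe sets of each gene averaged or without x and s suffix probe sets, where its log2 change was -0.092 and 0.031; the cause is that other probe sets then enter. Member probe sets called lower numbered 2 with array weights and 0 without x and s suffix probe sets, and ranged from 1 to 2 over the fits that left out each array. Pathway genes called lower numbered 5 without x and s suffix probe sets, where 36 genes were tested. In that setting SDHA stood at -0.099, on a dim probe set. Values near 0 changed sign: IDH3A was -0.071 with array weights, and with single arrays left out IDH3A ranged from -0.060 (without NC replicate 2) to 0.18 and IDH3B from -0.057 to 0.017 (0.0097 without KD replicate 3 and 0.017 without NC replicate 3). IDH3B minus IDH3A, -0.061 with all arrays, ranged from -0.19 to 0.0039 with single arrays left out and was above 0 without NC replicate 2 (0.0031) or 3. The cause of these sign changes was not tested. With the replicate number as a block, 3 members were called higher and 1 lower, and 7 member probe sets higher and 1 lower. Pathway genes called numbered 19 higher and 9 lower, and all these counts were the same without the block. Whether same-numbered arrays were handled together is not given. Not every sample correlated best with its own number. Of 31 named genes called, 19 kept call and direction in each alternative at the threshold of 0.05 that gave them a value. ACLY, SDHD and LIPT1 had no value without x and s suffix probe sets, and LIPT1 and MPC1 none without dim features. SLC25A12 and CD14 are not among these 31. Pseudocounts did not apply to log2 values. Signal over background was not measured, so changes of dim probe sets are less certain.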
